A study of Oryctolagus cuniculus with 16 samples.

Results

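The genes described here were *SPON1*, *SPON2*, the periostin gene *POSTN*, the tenascin genes *TNC* and *TNN*, the thrombospondin genes *THBS1*, *THBS2* and *THBS4*, the fibronectin gene *FN1* and *SPARC*, measured in the femoral head of rabbits with and without Perthes disease. These 10 genes were chosen by name with the Perthes and control values of the same libraries in view, so their differences between the groups are a description, and although they were part of the fit over all genes no p is given for them. Of the 20255 genes listed in the table, 9 carried one of these symbols, and all 9 were among the 15305 genes that passed the filter on low counts. *SPON2* matched no symbol and was not analysed here.

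Total RNA was sequenced from the femoral heads of 5 Perthes rabbits and 3 control rabbits, each library coming from a separate animal. The Perthes animals were wild-type rabbits operated on at 8 weeks of age. Surgery interrupted the vessels of the hip in 2 ways, by a permanent elastic tie around the neck of the femur and by division of the ligamentum teres. The label gives their genotype as "Perthes' disease" and that of the controls as "WT", and the age of the controls, any sham operation, the sex of the animals and the time between surgery and sampling are not given in the sources used. The group difference therefore holds the surgery and the lost blood supply together, which cannot be told apart. Library totals lay between 26757087 and 29461482 counts, and the lowest value of the 9 genes in any library was 1131 counts. Values are given as CPM, the authors' expected counts relative to the library total after scaling by the TMM method of edgeR, with the mean and SD over rabbits. The log2 fold change, Perthes over control, is from edgeR's model and is followed by its standard error (SE).

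Matricellular proteins are secreted into the matrix, where they act on cells and on the assembly of fibres more than they bear load. They bind integrins, syndecans and scavenger receptors, and many are scarce in resting adult tissue and abundant in development, wound healing and fibrosis. In bone, periostin marks the periosteum and ligaments, tenascins mark sites of new bone and repair, and fibronectin and SPARC belong to the matrix laid down by osteoblasts and fibroblasts.

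*SPON1* was the gene of the 9 whose lowest Perthes value stood farthest above its highest control. It encodes F-spondin, a matrix protein with thrombospondin type 1 repeats that was first known from the floor plate of the spinal cord and is also made in cartilage and periodontal tissue. Perthes rabbits 1 to 5 held 262, 186, 197, 189 and 229 CPM, and control rabbits 1 to 3 held 59.9, 41.5 and 67.0 CPM. The Perthes values were close together, and the lowest of them, in rabbit 2, was 2.78-fold above the highest control. The means were 213 ± 32.3 CPM (SD, n = 5) and 56.1 ± 13.2 CPM (SD, n = 3), with a log2 fold change of 1.92 (SE 0.22). In bulk tissue a larger share of the cells that make a transcript and more of it per cell cannot be told apart, here and in the values that follow.

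*POSTN* encodes periostin, a fasciclin domain protein that binds collagen and integrins and is made in the periosteum and the periodontal ligament. Perthes rabbits 1 to 5 held 1362, 1035, 549, 873 and 901 CPM, and the controls 131, 284 and 466 CPM. The groups did not overlap, but the gap was narrow, since Perthes rabbit 3 stood only 1.18-fold above control rabbit 3. The controls differed among themselves by 3.57-fold. The means were 944 ± 294 CPM (n = 5) and 294 ± 168 CPM (n = 3), with a log2 fold change of 1.68 (SE 0.44).

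The tenascins are large multi-armed glycoproteins that loosen the contact of cells with fibronectin. *TNC* encodes tenascin C, which appears around condensing mesenchyme, growing bone and healing wounds. It was at 1624, 2329, 1953, 2948 and 2213 CPM in Perthes rabbits 1 to 5 and at 733, 1148 and 1464 CPM in the controls. Each Perthes rabbit was above each control, with Perthes rabbit 1 only 1.11-fold above control rabbit 3. Its log2 fold change was 0.99 (SE 0.30), from means of 2213 ± 492 CPM (n = 5) and 1115 ± 366 CPM (n = 3).

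*TNN*, the gene of tenascin W, which is expressed in periosteum and by osteoblast precursors, lay the other way. Perthes rabbits held 134, 209, 157, 227 and 77.6 CPM, and the controls 240, 244 and 241 CPM. All 5 Perthes rabbits were below all 3 controls, rabbit 4 only slightly and rabbit 5 by the most. The controls were nearly equal, with an SD of 2.27 CPM around 242 CPM (n = 3), whereas the Perthes group had a mean of 161 ± 59.8 CPM (n = 5). The log2 fold change was -0.59 (SE 0.31), which was smaller than the spread of the Perthes rabbits, an SD of 0.62 on the log2 scale. Without Perthes rabbit 5 it was -0.40.

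The ratio of *TNC* to *TNN* counts was taken within each library, where the length of the transcripts affects its level but not its change between groups. The log2 ratio was 3.60, 3.48, 3.64, 3.70 and 4.83 in Perthes rabbits 1 to 5 and 1.61, 2.23 and 2.60 in the controls. Rabbits 1 to 4 lay within a narrow range and rabbit 5, the one with the lowest *TNN*, stood higher. The mean difference between the groups was 1.70, a 3.25-fold change in the balance of the tenascins. No Perthes value overlapped a control, which was fixed beforehand, since *TNC* was higher and *TNN* lower in every Perthes rabbit. The ratio restates those results and adds no further evidence.

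Among the thrombospondins, *THBS2* differed most. Thrombospondin 2 is a trimeric protein of fibroblasts that restrains new vessels and affects how collagen fibrils form. The Perthes rabbits held 776, 447, 562, 269 and 599 CPM, and the controls 56.8, 50.2 and 178 CPM. Control rabbit 3 was the high one among the controls and Perthes rabbit 4 the low one among the Perthes animals, and a factor of 1.51 still lay between them. The means were 531 ± 188 CPM (n = 5) and 95.0 ± 72.0 CPM (n = 3), and the log2 fold change was 2.48 (SE 0.52), the largest of the 9 genes. It was 3.31 without control rabbit 3.

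*THBS1*, whose protein is stored in platelets and can activate latent TGF-β, showed overlapping groups. It was at 2761, 1301, 1615, 1176 and 1396 CPM in the Perthes rabbits and at 1344, 811 and 1058 CPM in the controls. Perthes rabbit 1 stood well above all others, and rabbits 2 and 4 were below control rabbit 1. The log2 fold change of 0.62 (SE 0.33) became 0.36 without Perthes rabbit 1.

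*THBS4* encodes the pentameric thrombospondin of tendon, muscle and heart. The Perthes rabbits held 123, 106, 107, 287 and 110 CPM, and the controls 49.5, 39.9 and 168 CPM. In each group 1 library stood apart from close neighbours, Perthes rabbit 4 and control rabbit 3, and control rabbit 3 exceeded 4 of the 5 Perthes values. The log2 fold change of 0.77 (SE 0.54) was accordingly 0.38 without Perthes rabbit 4 and 1.71 without control rabbit 3. It also was 0.50 without control rabbit 1 and 0.43 without control rabbit 2.

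The balance of the thrombospondins was compared within libraries in the same way as that of the tenascins. The log2 ratio of *THBS2* to *THBS1* was -1.83, -1.54, -1.52, -2.13 and -1.22 in the Perthes rabbits and -4.56, -4.01 and -2.57 in the controls. All Perthes values were above all controls, and the mean difference of 2.07 corresponded to a 4.19-fold change. The ratio of *THBS4* to *THBS1* differed by 0.38 on the log2 scale, with overlapping groups. This value rested on single libraries. Perthes rabbit 4 was at -2.03 and the other Perthes rabbits at -4.48 to -3.62, and control rabbit 3 was at -2.65 and the other controls at -4.76 and -4.35.

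*FN1* encodes fibronectin, the adhesive glycoprotein on whose fibrils collagen and other matrix proteins are assembled. It was at 15193, 6487, 10256, 49773 and 21763 CPM in Perthes rabbits 1 to 5, and at 3094, 4423 and 12061 CPM in the controls. Perthes rabbit 4 exceeded every other library, and *FN1* alone took 4.70% of its counts. Perthes rabbits 2 and 3 were below control rabbit 3, so that the groups overlapped. The means of 20695 ± 17232 CPM (n = 5) and 6526 ± 4839 CPM (n = 3) lay closer together than the SD of the Perthes group. The log2 fold change was 1.66 (SE 0.75), and it was 1.04 without Perthes rabbit 4 and 2.46 without control rabbit 3.

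*SPARC*, or osteonectin, binds collagen and calcium and is among the most abundant products of osteoblasts. Its values were 13568, 19530, 20574, 22956 and 16122 CPM in the Perthes rabbits and 11251, 18015 and 21717 CPM in the controls. The groups covered almost the same range, and Perthes rabbit 4 was the single one above the highest control. The log2 fold change was 0.13 (SE 0.33), with means of 18550 ± 3714 CPM (n = 5) and 16994 ± 5307 CPM (n = 3), and the difference was smaller than the spread in either group. It changed sign, to -0.10, without control rabbit 1.

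**Figure D1:**
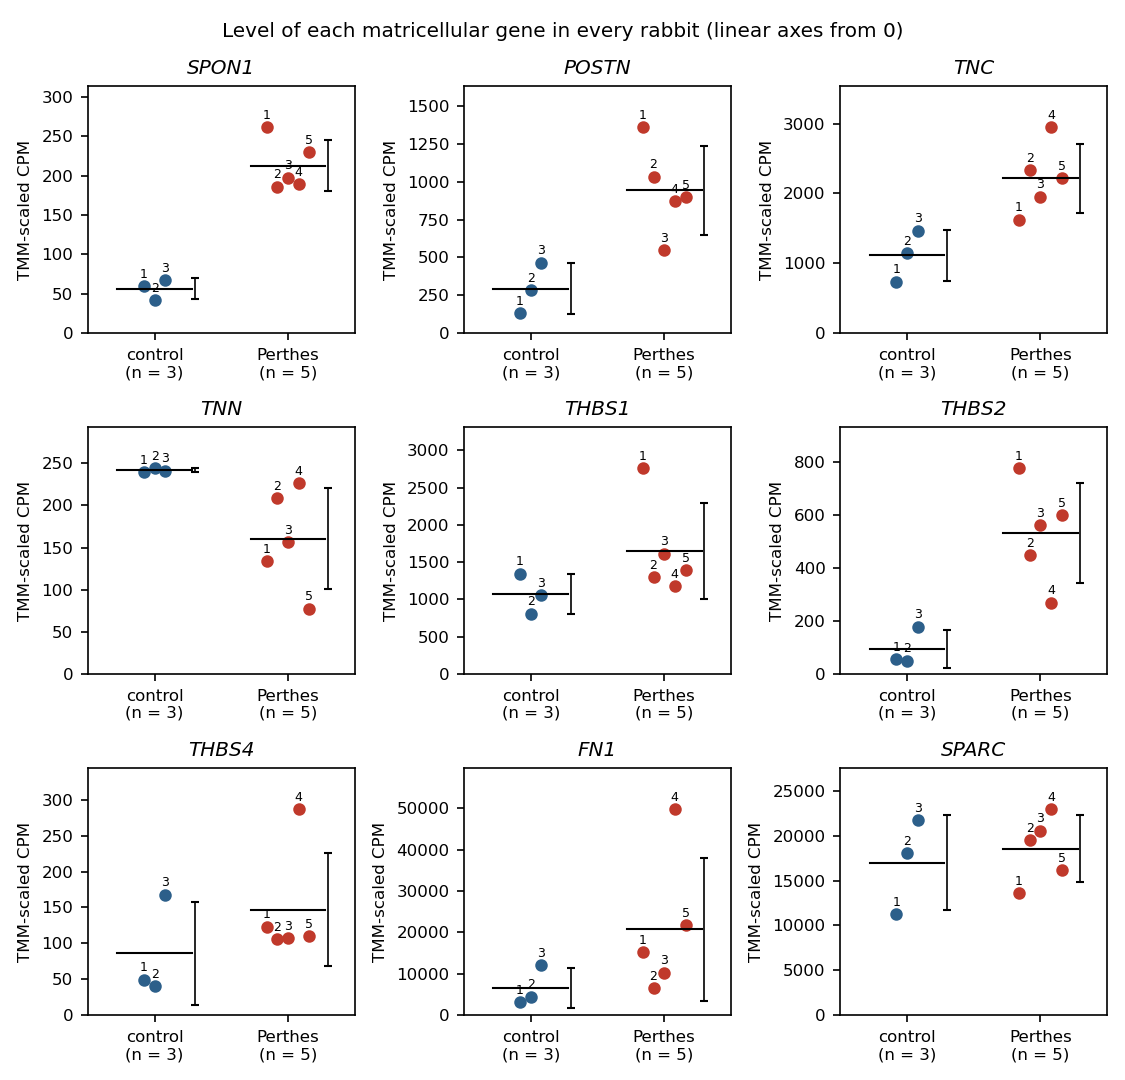
Level of each of the 9 genes in TMM-scaled CPM (vertical axes, linear and starting at 0) in 3 control rabbits (blue) and 5 Perthes rabbits (red), numbered by rabbit, with the group mean (line) and SD (bar). *SPON1*, *POSTN*, *TNC* and *THBS2* lie higher in every Perthes rabbit than in any control, *TNN* lies lower, and the groups of the other 4 genes overlap.

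Counted over the 9 genes, 4 were higher in every Perthes rabbit than in any control (*SPON1*, *POSTN*, *TNC* and *THBS2*), where 11.2% of all tested genes were, and 1 was lower (*TNN*), where 13.9% of all genes were. A gene was called different between groups when its log2 fold change was above 1 or below -1 and its adjusted p in edgeR's quasi-likelihood test was below 0.05. This rule called 4.21% of all genes higher and 6.72% lower. It was met by 3 of the 9 genes in the higher direction (*SPON1*, *POSTN* and *THBS2*) and by 0 in the lower direction. Without control rabbit 2 edgeR called 0 genes of the whole table, these included. The median log2 fold change was 0.99 over the 9 genes and 0.02 over all tested genes. As the genes were selected on this same contrast, nothing is read from these counts.

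The order of the log2 fold changes ran from *THBS2* at 2.48 through *SPON1*, *POSTN* and *FN1* (1.92, 1.68 and 1.66), *TNC* (0.99), *THBS4* (0.77), *THBS1* (0.62) and *SPARC* (0.13) to *TNN* at -0.59. Neighbours in this order differed by less than the larger of their SEs, apart from *THBS2* and *SPON1*, *THBS1* and *SPARC*, and *SPARC* and *TNN*. Levels per transcript length were not compared between genes, since lengths were not at hand. Where a gene of a list is named below for its high level, this is by CPM, not corrected for length.

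Single rabbits were high or low in several of these genes together. Control rabbit 3 was the highest control in 7 of the 9 genes, all but *TNN* and *THBS1*. Over all 9 genes its median distance above the other controls was 0.67 on the log2 scale. Perthes rabbit 4 was the highest of its group for *TNC*, *TNN*, *THBS4*, *FN1* and *SPARC*, and Perthes rabbit 1 for *SPON1*, *POSTN*, *THBS1* and *THBS2*. Perthes rabbit 4 was at the same time the lowest of its group for *THBS1* and *THBS2*. Together the 9 genes took 3.88, 2.97, 3.34, 7.42 and 4.33% of the counts of Perthes rabbits 1 to 5 and 1.72, 2.66 and 3.91% of those of the controls. By this share control rabbit 3 stood above 3 of the 5 Perthes rabbits, rabbits 1, 2 and 3.

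Ratios within libraries were also taken of genes from different families, each set against a gene whose groups overlapped. The log2 ratio of *POSTN* to *SPARC* was on average 1.65 higher in the Perthes rabbits and that of *SPON1* to *THBS1* 1.36 higher, each without overlap. That of *FN1* to *SPARC* was 1.40 higher with overlap, at -1.59 to 1.12 in the Perthes rabbits and -2.03 to -0.85 in the controls. Perthes rabbits 2 and 3 were the ones that lay within the range of the controls.

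**Figure D2:**
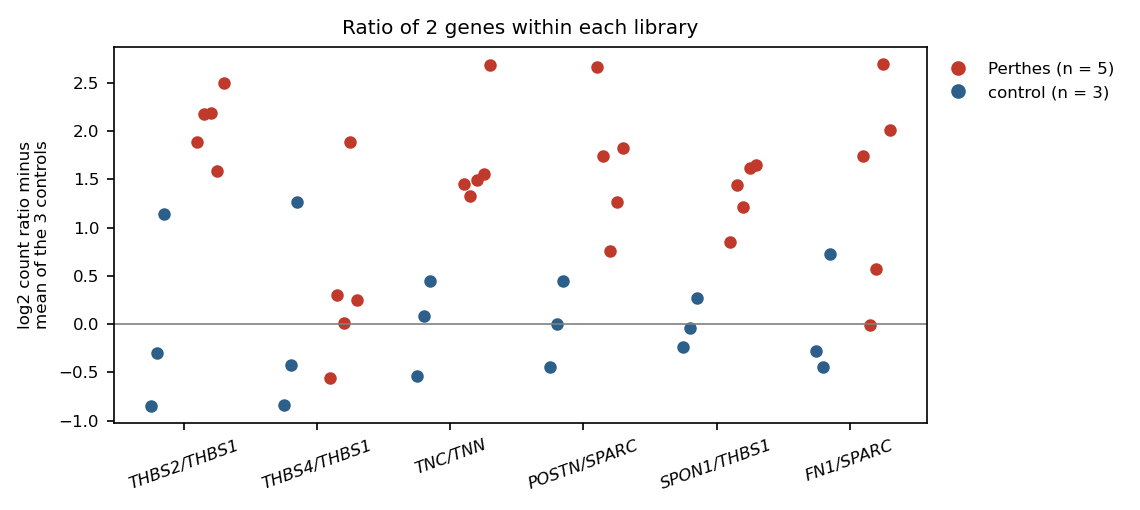
Log2 ratio of the counts of a pair of genes within each library, minus the mean of the 3 controls (vertical axis), for 5 Perthes rabbits (red) and 3 controls (blue). The ratios *THBS2*/*THBS1*, *TNC*/*TNN*, *POSTN*/*SPARC* and *SPON1*/*THBS1* show no overlap of the groups, and *THBS4*/*THBS1* and *FN1*/*SPARC* overlap. For *TNC*/*TNN* this was fixed by the separation of each gene in opposite directions.

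Other matricellular genes were taken from a list that left out the genes above. Of its 30 genes 28 were in the table and 25 were tested, and edgeR called 9 higher, 0 lower and 16 neither, against 4.21% higher and 6.72% lower over all tested genes. The median log2 fold change was 0.92, against 0.02 over all tested genes. At an unadjusted p below 0.05 there were likewise 0 lower, and DESeq2 called 0 lower. The 9 were *VTN*, *TGFBI*, *RSPO2*, *MDK*, *FBLN2*, *SPARCL1*, *FSTL1*, *SMOC1* and *CTHRC1*. The count rested on the libraries used: it was 0 without control rabbit 2 (11 with the same fold at an unadjusted p below 0.05), 1 without control rabbit 1, 2 without Perthes rabbit 3, 4 without Perthes rabbit 1 and 4 without Perthes rabbit 5. It was 6 without Perthes rabbit 2, and 5 with scaling by library totals alone.

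*VTN*, the gene of vitronectin, an adhesive protein of plasma and matrix, rose at a low level. The Perthes rabbits held 6.05, 5.77, 10.4, 5.13 and 10.4 CPM and the controls 0.965 to 1.48 CPM, with no overlap, and the log2 fold change was 2.67 (SE 0.35, adjusted p = 0.0118, higher in 5 of 5). *TGFBI*, which encodes a fasciclin domain protein related to periostin and induced by TGF-β, was at 806, 476, 504, 2077 and 2073 CPM against 261, 192 and 214 CPM. Perthes rabbits 4 and 5 were far above the others, and all 5 exceeded the controls (log2 fold change 2.42, SE 0.59, adjusted p = 0.0286). *RSPO2*, an R-spondin with a thrombospondin type 1 repeat that amplifies Wnt signals, was at 1.80 to 3.48 CPM in Perthes rabbits and at 0.141 to 1.06 CPM in controls (2.28, SE 0.59, adjusted p = 0.0334, higher in 5 of 5).

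*MDK*, the gene of the heparin-binding growth factor midkine, rose with a log2 fold change of 1.66 (SE 0.43, adjusted p = 0.0326). Here 4 of the 5 Perthes rabbits, at 26.0 to 49.5 CPM, were above the controls at 7.47 to 12.5 CPM, and Perthes rabbit 4 with 12.4 CPM was not. *FBLN2*, which encodes a fibulin of elastic fibres and basement membranes, rose by 1.64 (SE 0.47, adjusted p = 0.0461), again in 4 of 5 rabbits, with Perthes rabbit 4 at 12.6 CPM inside the range of the controls. *SPP1*, osteopontin, had the highest mean CPM of the list. It was at 1583, 1768, 1883, 1854 and 3067 CPM in the Perthes rabbits and at 436, 1431 and 1400 CPM in the controls. All 5 were above the controls, but the difference did not pass the test (log2 fold change 0.90, SE 0.41, adjusted p = 0.171).

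The receptor list held integrin chains, syndecans, LRP receptors and other surface proteins to which matricellular proteins bind. Of 23 genes 21 were in the table and 20 were tested. edgeR called 7 higher (*ITGB8*, *STAB1*, *SDC1*, *ITGA3*, *ANXA2*, *LRP1* and *ITGAV*), 1 lower (*ITGA2B*) and 12 neither, beside 4.21% higher and 6.72% lower over all genes, with a median log2 fold change of 0.92. The 1 lower gene of 20 is about the share over all genes. The higher count was 0 without control rabbit 2 (10 at an unadjusted p below 0.05), 1 without control rabbit 1, 3 without Perthes rabbit 3 and 3 without Perthes rabbit 5, and the lower count was 0 in each of these fits (1 at an unadjusted p below 0.05 in each).

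*LRP1*, the endocytic receptor that takes up thrombospondins, had the highest mean CPM of these genes. Perthes rabbits held 3595, 3229, 3670, 3136 and 4225 CPM and controls 1194, 1651 and 1803 CPM. The groups were well apart, and the log2 fold change was 1.20 (SE 0.24, adjusted p = 0.0165, higher in 5 of 5). *ITGB8*, the integrin chain that with αv releases active TGF-β, was at 21.0, 6.29, 9.51, 12.4 and 12.7 CPM against 1.82, 3.98 and 5.16 CPM (1.76, SE 0.45, adjusted p = 0.0326). *SDC1*, a heparan sulphate proteoglycan that serves as coreceptor for tenascin C and fibronectin, was at 62.9, 87.1, 82.8, 70.9 and 94.9 CPM against 21.3, 25.6 and 37.2 CPM. All 5 Perthes rabbits exceeded the controls in both, and for *SDC1* the log2 fold change was 1.51 (SE 0.23, adjusted p = 0.0118).

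*ITGA3*, a laminin-binding integrin chain, rose by 1.48 (SE 0.32, adjusted p = 0.0185), and *ANXA2*, a membrane-binding annexin reported as a tenascin C receptor, by 1.25 (SE 0.31, adjusted p = 0.0284), each in 5 of 5 rabbits. *STAB1*, the scavenger receptor by which macrophages clear SPARC, was at 567, 501, 574, 154 and 651 CPM in the Perthes rabbits and at 216, 178 and 115 CPM in the controls. It rose in 4 of the 5 rabbits, as Perthes rabbit 4 lay within the range of the controls (log2 fold change 1.53, SE 0.45, adjusted p just under the threshold at 0.04996). *ITGA2B*, the αIIb chain of the platelet fibrinogen receptor, was the 1 gene of the list called lower. It was at 6.28, 62.0, 22.4, 21.0 and 12.0 CPM in the Perthes rabbits and at 268, 133 and 83.9 CPM in the controls, with all 5 below (log2 fold change -2.71, SE 0.66, adjusted p = 0.0274).

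The αv chain gene *ITGAV* was thus called higher together with *ITGB8*, while its partners *ITGB1* and *ITGB5* and the fibronectin receptor chain *ITGA5* had adjusted p values of 0.0274, 0.0188 and 0.0490 with log2 fold changes of 0.91, 0.89 and 0.84, short of the fold required. *ITGB3*, another partner of αv and also of αIIb, had a log2 fold change of -0.54 (adjusted p = 0.318), with 4 of 5 Perthes rabbits below all controls and rabbit 2 above them. The chain *ITGA4*, of leukocyte integrins that bind fibronectin, had a log2 fold change of -0.89 (adjusted p = 0.0192), with all 5 Perthes rabbits below the controls. These genes were picked after their values were seen.

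Genes that assemble the matrix around these proteins were taken as a list of collagens, their modifying enzymes, fibrillin and collagen receptors. Of 21 genes 20 were in the table and tested. edgeR called 6 higher (*COL3A1*, *COL12A1*, *FBN1*, *HSPG2*, *LTBP1* and *PLOD1*), 0 lower and 14 neither, where 4.21% and 6.72% of all genes were called higher and lower, with a median log2 fold change of 0.98. At an unadjusted p below 0.05 there were 0 lower, and DESeq2 called 0 lower. The higher count was 0 without Perthes rabbit 3 (9 at an unadjusted p below 0.05), without Perthes rabbit 5 (8), without control rabbit 1 (6) and without control rabbit 2 (7).

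*COL3A1*, the fibrillar collagen of loose connective tissue and early repair, was at 20732, 11736, 12707, 16274 and 16016 CPM in the Perthes rabbits and at 780, 1634 and 6747 CPM in the controls. All Perthes values were above the controls, which differed among themselves by 8.64-fold, with control rabbit 3 the highest (log2 fold change 2.34, SE 0.67, adjusted p = 0.0474). *COL12A1*, a collagen that sits on fibril surfaces and binds tenascins, was at 5182, 2533, 2638, 6453 and 2931 CPM against 498, 322 and 1597 CPM. Control rabbit 3 was again the high control, without reaching the Perthes group (2.29, SE 0.61, adjusted p = 0.0359). *FBN1*, whose product fibrillin forms microfibrils, rose by 1.37 (SE 0.34, adjusted p = 0.0299), *HSPG2*, the basement membrane proteoglycan perlecan, by 1.24 (SE 0.32, adjusted p = 0.0345) and *LTBP1*, which tethers latent TGF-β to the matrix, by 1.15 (SE 0.29, adjusted p = 0.0301), each in 5 of 5 rabbits.

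*COL1A1*, the main collagen of bone, had the highest mean CPM of that list. It was at 44666, 143897, 126120, 66399 and 75093 CPM in the Perthes rabbits and at 72816, 90894 and 82141 CPM in the controls. The Perthes rabbits lay on both sides of the controls, 2 above and 2 below, and the log2 fold change of 0.15 (SE 0.46, adjusted p = 0.842) was within the spread. Like *SPARC*, another product of osteoblasts, it showed no difference larger than the variation between rabbits.

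Signals known to induce matricellular genes, the TGF-β pathway and the mechanically regulated YAP and SRF factors, made up the last list. Of 23 genes 22 were in the table and 21 were tested. edgeR called 2 higher (*ACTA2* and *TEAD1*), 0 lower and 19 neither, beside 4.21% higher and 6.72% lower over all genes, with a median log2 fold change of 0.56. At these shares few calls would fall among 21 genes, and nothing is read from either count. At an unadjusted p below 0.05 there were 0 lower, and DESeq2 called 1 lower. The higher count was 0 without control rabbit 1 (1 at an unadjusted p below 0.05) and 0 without control rabbit 2 (3). It was 1 without each of Perthes rabbits 1, 3, 4 and 5 and with scaling by library totals alone, and 3 without control rabbit 3. The lower count was 1 without Perthes rabbit 2 and without control rabbit 3.

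*ACTA2*, the smooth muscle actin of myofibroblasts and vessel walls and a target of TGF-β and SRF, was at 156, 62.9, 180, 41.9 and 198 CPM in the Perthes rabbits and at 5.61, 12.5 and 14.2 CPM in the controls. The groups were far apart although the Perthes values differed by 4.72-fold, rabbits 2 and 4 being low (log2 fold change 3.56, SE 0.62, adjusted p = 0.0133). *TEAD1*, the DNA-binding partner of YAP, rose by 1.03 (SE 0.29, adjusted p = 0.0446, higher in 5 of 5). *TGFBR2*, the receptor that binds TGF-β, had the highest mean CPM, at 357, 375, 360, 369 and 397 CPM against 235, 242 and 277 CPM. It was higher in 5 of 5 with a small spread, but its log2 fold change of 0.56 (SE 0.16, adjusted p = 0.0415) was below the fold required.

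The TGF-β ligand genes and the SMAD genes were not called. *TGFB1* was at 40.1 to 64.1 CPM in Perthes rabbits and at 55.6 to 60.5 CPM in controls (log2 fold change -0.09, adjusted p = 0.739). *INHBA*, the gene of the activin A subunit, was dominated by Perthes rabbit 4, the rabbit with the highest *FN1*. It was at 429 CPM there, at 10.3 to 73.6 CPM in the other Perthes rabbits and at 1.32 to 18.7 CPM in the controls. With this spread it did not pass the test, with a log2 fold change of 3.89 (adjusted p = 0.110, higher than all controls in 3 of 5). Both genes were picked after their values were seen.

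The cell types that could carry these transcripts were followed by lists of marker genes, summed in each library. The label of the tissue, femoral head, was borne out by abundant bone and cartilage transcripts in all libraries. Chondrocyte markers (8 of 8 in the table, led in CPM by *COL2A1*) summed to 35221, 41508, 77869, 142860 and 61335 CPM in Perthes rabbits 1 to 5 and to 47785, 46147 and 65734 CPM in the controls. Osteoblast and osteocyte markers (8 of 8, led by *IBSP*) summed to 1703, 1782, 2200, 3084 and 1811 CPM and to 1142, 1600 and 2250 CPM. Both groups overlapped in both lists, and Perthes rabbit 4, the one with the most *FN1*, *TNC*, *THBS4* and *SPARC*, was the highest in both, while control rabbit 3 was the highest control. The chondrocyte sum was mostly *COL2A1*, with a log2 fold change of 0.34. All 7 tested chondrocyte markers had positive log2 fold changes, with a median of 1.01, beside 0.99 for the 9 matricellular genes. That median was the value of *MATN3* (SE 0.96), and all 7 were highest in Perthes rabbit 4. Of the 7, 0 were higher in every Perthes rabbit than in any control, where 11.2% of all tested genes were. The osteoblast markers had a median of -0.04. The largest part of the osteoblast sum was *IBSP*, with a mean of 1006 CPM in Perthes rabbits and 428 CPM in controls (log2 fold change 1.23, adjusted p = 0.106). *BGLAP* lay the other way, at 160 and 355 CPM (-1.15, adjusted p = 0.206, with 4 of 5 Perthes rabbits below all controls), as did *MEPE* (-0.69, adjusted p = 0.173). These last 2 genes were picked after their values were seen. edgeR called 0 of 7 tested chondrocyte markers and 0 of 8 osteoblast markers, beside 4.21% higher and 6.72% lower over all tested genes. At these shares few calls would fall among 7 or 8 genes, and nothing is read from the counts of 0. At an unadjusted p below 0.05 and the same fold 1 of each was higher, and DESeq2 called 0 and 1 higher.

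Fibroblast markers (7 of 7, led by *COL1A2*) summed to 46491, 100104, 90455, 55913 and 58858 CPM in the Perthes rabbits and to 47159, 64986 and 68685 CPM in the controls, with 1 of 7 called higher (3 with the same fold at an unadjusted p below 0.05, and 3 by DESeq2) and 0 lower by any of these. Over all tested genes edgeR called 4.21% higher and 6.72% lower, and nothing is read from 1 call among 7 genes. The fibroblast sum was mostly *COL1A2* and overlapped between groups. Of the other markers, *LUM*, *THY1* and *PDPN* were higher in every Perthes rabbit than in any control, as were 11.2% of all tested genes, and the other 4 overlapped. The markers did not peak in the same rabbit: *LUM* and *DCN* were highest in Perthes rabbit 1, *COL1A2* and *PDGFRB* in rabbit 2, *THY1* in rabbit 3, and *PDGFRA* and *PDPN* in rabbit 4. Smooth muscle and pericyte markers (6 of 7, led by *NOTCH3*) summed to 295, 320, 450, 350 and 487 CPM against 166, 263 and 247 CPM, with the sums of all Perthes rabbits above the controls. Of these markers 1 of 6, *ACTG2*, was called higher, beside 4.21% of all tested genes, and nothing is read from 1 call. *ACTG2* was also the 1 marker higher in every Perthes rabbit than in any control, beside 11.2% of all tested genes. *NOTCH3*, *RGS5*, *MCAM*, *MYH11* and *DES* overlapped between the groups. Tendon and ligament markers (4 of 5, led by *FMOD*) summed to 833, 540, 827, 1796 and 768 CPM against 328, 462 and 829 CPM. Perthes rabbit 4 and control rabbit 3 were the highest of their groups here, as they were for *THBS4* and for the chondrocyte and osteoblast lists. The tendon and ligament sum was mostly *FMOD*, at 1780 CPM in Perthes rabbit 4. Among the Perthes rabbits *MKX* was also highest in rabbit 4 (15.4 CPM), but *TNMD* was highest in rabbit 1 (1.05 CPM) and *KERA* in rabbit 3 (1.29 CPM).

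Synovial lining markers (4 of 4, led by *PRG4*) summed to 199, 105, 253, 610 and 168 CPM in Perthes rabbits and to 265, 1205 and 1061 CPM in controls. Control rabbit 1 was far below the other controls, and Perthes rabbit 4 exceeded it. Skeletal muscle markers (4 of 8, led by *ACTA1*) were near the limit of detection, at 0.878, 0.524, 0.624, 0.910 and 2.45 CPM against 1.14, 0.388 and 9.55 CPM. Control rabbit 3 held the most muscle transcripts of all libraries, and it also held the most *THBS4*, a gene of muscle and tendon, among the controls. The Perthes rabbits did not share this order. Rabbit 5 held the most muscle transcripts of them with *THBS4* at 110 CPM, and rabbit 4, at 0.910 CPM of muscle markers, held *THBS4* at 287 CPM. Endothelial markers (7 of 7, led by *PECAM1*) lay at 293 to 450 CPM in Perthes rabbits and at 355 to 450 CPM in controls, and adipocyte markers (4 of 5, led by *ADIPOQ*) at 62.5 to 698 CPM and at 234 to 473 CPM. Of these lists and those of tendon, synovium and muscle edgeR called 0 genes, beside 4.21% higher and 6.72% lower over all tested genes. The lists are short, and nothing is read from the count of 0. At an unadjusted p below 0.05 with the same fold 1 endothelial marker was higher, and 2 synovial and 1 muscle marker were lower, and DESeq2 called 1 endothelial marker higher and 0 genes of the others.

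Apart from the smooth muscle and pericyte list, the marker lists whose sums separated the groups were those of blood and marrow cells. In the smooth muscle and macrophage lists most single markers overlapped between the groups. Macrophage markers (5 of 8, led by *CSF1R*) summed to 1245, 750, 1023, 393 and 1259 CPM in the Perthes rabbits and to 367, 341 and 316 CPM in the controls, and 3 of 5 were called higher, beside 4.21% of all tested genes. All Perthes rabbits were above the controls, and rabbit 4 was the lowest of them, as for *STAB1*, *THBS1* and *THBS2*. Megakaryocyte and platelet markers (5 of 8, led by *TUBB1*) summed to 0.507, 67.0, 15.5, 13.1 and 4.22 CPM against 317, 195 and 146 CPM. They were 10.9-fold lower in the Perthes mean, with 1 of 5 called lower (5 with the same fold at an unadjusted p below 0.05, and 3 by DESeq2). Of all 15305 tested genes 6.72% were called lower by edgeR, 1481 genes at the unadjusted p with that fold and 1305 by DESeq2. The size of the fold rested on Perthes rabbit 2, which at 67.0 CPM stood far above the other Perthes rabbits. *ITGA2B* had the same order of rabbits within each group as these markers.

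Neutrophil markers (6 of 7, led by *LTF*) summed to 20.1, 1386, 542, 1285 and 149 CPM against 17212, 4959 and 4565 CPM, and 2 of 6 were called lower (6 at an unadjusted p, and 6 by DESeq2). Of all 15305 tested genes 6.72% were called lower (1481 genes at an unadjusted p, and 1305 by DESeq2). Erythroid markers (7 of 7, led by *SLC4A1*) summed to 28.9, 1907, 344, 381 and 68.2 CPM against 4751, 4598 and 3999 CPM, and 1 of 7 was called lower (7 at an unadjusted p, and 4 by DESeq2), again beside 6.72% of all genes by edgeR. All Perthes rabbits were below the controls in both lists, by 13.2-fold and 8.15-fold in the means. The size of each fold rested on a single library, control rabbit 1 at 17212 CPM for neutrophil and Perthes rabbit 2 at 1907 CPM for erythroid markers. Perthes rabbit 1, with the least of these transcripts, was the one highest in *SPON1*, *POSTN*, *THBS1* and *THBS2*, but the lowest of its group in *TNC* and *SPARC*. Perthes rabbit 4, the highest of its group in *TNC*, *TNN*, *THBS4*, *FN1* and *SPARC*, held more of both lists than Perthes rabbits 1, 3 and 5. Control rabbit 3, with the least of these transcripts among the controls, was the highest control in 7 of the 9 genes. Without control rabbit 2 none of the marker genes was called, as edgeR then called 0 genes in all (3722 at an unadjusted p below 0.05). No marker in any list was at 0 in all libraries. The part of these cell types in the values of the matricellular genes and their receptors was not tested.

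**Figure D3:**
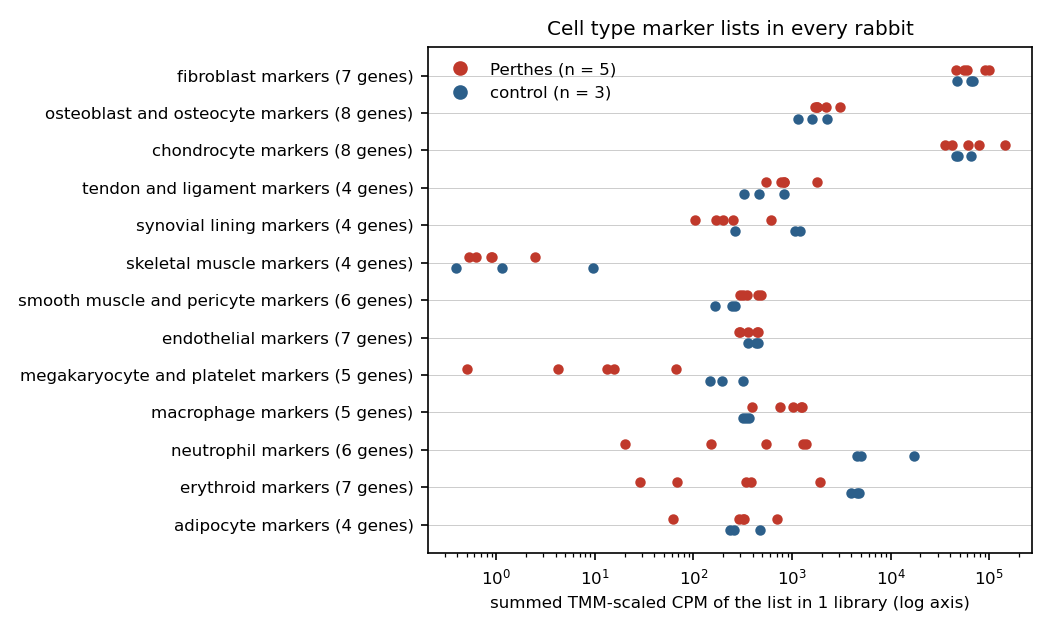
Summed TMM-scaled CPM of each marker list (horizontal log axis) in 5 Perthes rabbits (red) and 3 control rabbits (blue), 1 point for each library. Neutrophil, erythroid and megakaryocyte lists lie lower in all Perthes rabbits, macrophage and smooth muscle lists lie higher in all of them, and the other lists overlap.

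The genes whose levels followed each of the 9 most closely were found from log2 CPM centred on its mean over the 8 libraries, by the root mean square difference. *SPON1* was followed by *FTH1* at 0.23 (ferritin heavy chain), *ROR2* at 0.24 (a Wnt5a receptor of skeletal growth) and *SMKR1* at 0.24, against a spread of 0.97 of *SPON1* itself. *FTH1* was at 4076 ± 1087 CPM in Perthes rabbits (SD, n = 5) and 935 ± 66.8 CPM in controls (n = 3), and *ROR2* at 27.9 ± 3.72 and 8.15 ± 2.26 CPM. *POSTN* was followed by *DCLK1* (0.26), *DSEL* (0.28) and the endothelin receptor gene *EDNRA* (0.30). Nearest to *THBS2* were the mesenchymal homeobox gene *PRRX2* (0.24), *FABP3* (0.25) and *DKK3* (0.34), against a spread of 1.44 of *THBS2*.

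*TNC* was followed by *CCDC8* and *NINL* (both 0.13) and by *CCN1* (0.15), itself a matricellular gene of the list above and a target of YAP, with a log2 fold change of 0.92. *TNN* was nearest to *WASF3*, *CTNNA3* and *POU2AF1* (0.21 to 0.22), the last a gene of B cells. *THBS1* was nearest to *VPS4B* and the early response gene *KLF6* (both 0.17) and *ADSS2* (0.19). *THBS4* was nearest to *BMP6* (0.29), *HBEGF* (0.31) and *MYBL1* (0.34).

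*FN1* was nearest to *STC2* (0.25), the TWEAK receptor gene *TNFRSF12A* (0.29) and the prostaglandin E synthase gene *PTGES* (0.34). *SPARC* was nearest to *MTSS2*, *RERG* and *SLC22A17* (0.10 to 0.12). With the 5 Perthes libraries alone, 0 of the 27 genes were again among the nearest 3, so none of these neighbours followed its gene most closely from rabbit to rabbit within the disease group. Among the 9 genes themselves the closest pair was *TNC* and *SPARC* at 0.44, and the most distant was *TNN* and *THBS2* at 1.86.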

How the data were processed

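Ribosomal RNA was removed from femoral head total RNA, and directional libraries were sequenced. The authors used HISAT2 2.0.4 for mapping to the rabbit assembly of their methods, and RSEM 1.1.17 with HTSeq 1.99.2 for quantification. The values deposited are expected counts, not normalized, which divide shared reads among genes. Up to 10.7% of the gene values in a library's column were not exactly whole as written, and 0 of the 72 values of the genes described here. Whether strand was used in counting is not stated. The 8 further per-sample columns repeat the 8 used, and the miRNA counts were not used. The control coded 3, titled replicate 2, was taken as control rabbit 3.

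Counts were rounded, filtered by filterByExpr by group and scaled by TMM. The groups were tested with the quasi-likelihood F-test of edgeR 4.0.16 (R 4.3.3), and p values were adjusted by the Benjamini-Hochberg method over 15305 genes. The SE is the size of the log2 fold change over the root of F. Log2 CPM used a prior count of 2. The biological coefficient of variation was 0.361. For the 9 genes variation between rabbits and not depth set the precision, while genes near or below 1 CPM, such as *RSPO2* and *SBSPON* in the controls, were also limited by counting.

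The genes described and the 4 pathway and 13 marker lists were chosen with earlier results of these data known. Named from each pathway list were up to 5 called genes per direction, taken by the size of their change, and the gene with the highest mean CPM. The gene with the highest mean CPM of each marker list and the 3 nearest named genes by likeness were added. Genes outside this rule, such as the remaining called genes of a list, were named after their values were seen. Alternatives were DESeq2 1.42.0, its size factors in edgeR, library totals alone, no filter, at least 10 counts in every library, a block for the replicate number, and the omission of each rabbit. Levels per transcript length, proteins and promoters were not compared between genes, as no transcript lengths or sequences were at hand.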

Additional observations from a re-analysis of the deposited data

Results flagged for a closer look

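Among the 9 genes and the genes named from the pathway and marker lists, 44 in all, 3 had 1 Perthes rabbit far from the other 4 on the log2 scale, measured as its gap to the nearest rabbit over the whole range of the group. For *THBS4* this share was 0.844, with Perthes rabbit 4 at 287 CPM and the others at 106 to 123 CPM. For *SPP1* it was 0.738, with Perthes rabbit 5 at 3067 CPM and the others at 1583 to 1883 CPM. For *STAB1* it was 0.818, with Perthes rabbit 4 at 154 CPM and the others at 501 to 651 CPM. Chance alone marks about 1 in 20 groups in this way. The control group, with 3 rabbits, was not examined.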

How the results depend on the processing

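With the replicate block, which pairs rabbits that share only a number, edgeR called 0 genes higher and 0 lower, in place of 645 and 1028 (3152 genes at an unadjusted p below 0.05), and therefore 0 other matricellular genes, 0 receptors in either direction, 0 assembly partners and 0 upstream genes. DESeq2 called 947 genes higher and 1305 lower. With library totals alone 5 other matricellular genes and 1 upstream gene were called higher. DESeq2, library totals alone and the filter of at least 10 counts each called 1 upstream gene lower, in place of 0. In the main edgeR fit *MRTFA* was just short of both limits of a lower call, at a log2 fold change of -0.999 (adjusted p = 0.0526). The cause of the changed counts was not tested. Leaving out each rabbit in turn gave 0 to 832 genes called higher and 0 to 1337 lower, 0 to 9 other matricellular genes higher, 0 to 9 receptors higher and 0 to 1 lower, 0 to 7 assembly partners higher, and 0 to 3 upstream genes higher and 0 to 1 lower. The counts of genes called higher and lower were 0 and 0 without control rabbit 2 (3722 at an unadjusted p below 0.05), 69 and 169 without control rabbit 1, 310 and 485 without Perthes rabbit 5, and 330 and 552 without Perthes rabbit 3. The median log2 fold change of the 9 genes ran from 0.82 to 1.71 over these fits, the highest without control rabbit 3. The sign of each of the 9 genes was the same in all 15 fits, except that *SPARC* was positive in 14. *FN1* was at 0.85 with the block. With 3 controls, the calls rest on few animals, whereas depth did not limit the 9 genes.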

Other observations

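The annotation that comes with the counts places the genes in wider families, which were looked up after the data were seen. Over all tested genes 4.21% were called higher and 6.72% lower, and all calls, those given here included, were lost without control rabbit 2. A thrombospondin type 1 repeat is annotated here for *SPON1* and *THBS1* among the 9 genes, and the annotation may be incomplete. Of 26 other tested genes with this annotation, 7 were called higher and 1 lower by edgeR, with a median log2 fold change of 0.92. *SBSPON*, a small relative of the spondins, was at 8.75, 5.62, 3.75, 4.51 and 3.44 CPM in Perthes rabbits 1 to 5 and at 0.250, 0.212 and 1.13 CPM in the controls. The groups did not overlap, and the log2 fold change was 3.28 (SE 0.63, adjusted p = 0.0147). The proteases *ADAMTS15* (2.43, SE 0.30, adjusted p = 0.0118) and *ADAMTS4* (1.53, SE 0.27, adjusted p = 0.0133), which cut proteoglycans such as aggrecan and versican, rose in 5 of 5 rabbits. So did *ADAMTS7*, *ADAMTSL4*, *PAPLN* and *RSPO2*. *CFP*, the complement regulator properdin, made by leukocytes, fell by 1.92 on the log2 scale (SE 0.40, adjusted p = 0.0176) in 5 of 5.

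Of 78 tested genes of the ECM-receptor interaction pathway, 15 were called higher and 5 lower, the latter about the share over all genes, with a median of 0.70. The basement membrane genes *COL4A1* (log2 fold change 1.68, SE 0.25, adjusted p = 0.0118), *COL4A2* (1.78, SE 0.26, adjusted p = 0.0118) and *LAMB1* (1.55, SE 0.20, adjusted p = 0.0118) were among those that rose, in 5 of 5 rabbits each. *LAMB1* was at 225 to 274 CPM in Perthes rabbits and at 67.0 to 105 CPM in controls, with a small spread in both. The genes that fell included *ITGA2B* and *GP5*, both of platelets, and *HMMR*, a gene of dividing cells, which was at 4.19 to 11.8 CPM in Perthes rabbits and at 20.2 to 24.7 CPM in controls (-1.71, SE 0.31, adjusted p = 0.0136). Of 61 tested genes with a fibronectin type III domain, the fold of tenascins and fibronectin, 2 were called higher and 3 lower, about the share over all genes, with a median of 0.27. The annotation gives a fasciclin domain to 2 tested genes besides *POSTN*, *TGFBI* and *STAB1*, both called higher, *STAB1* only just and with Perthes rabbit 4 inside the range of the controls. *STAB2*, a relative of *STAB1* without that annotation here, had a log2 fold change of -1.22 (adjusted p = 0.311), with 4 of 5 Perthes rabbits below all controls.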
